A study of Mus musculus with 8 samples.

Results

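The MYC, MAX and MXD network is a family of transcription factors that meet on a shared partner, MAX. Its 9 genes described here are Myc, Max, Mxd1, Mxd3, Mxd4, Mxi1, Mnt, Mga and Mlx, out of 49315 gene identifiers counted. They were chosen by gene symbol, and Mxd1 was selected on its measured levels in these same libraries, which fell with low density. The values of Mxd1 in the low-density and high-density libraries, and the difference between them in each genotype, are therefore given as a description without a test.

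The libraries came from peritoneal neutrophils of C57BL/6 mice aged 2 months, drawn to the cavity with casein and separated by density. The 4 groups were low-density and high-density cells of H2R-deficient mice (replicates 1 and 2) and low-density and high-density cells of wild-type mice (replicates 2 and 4), with 2 libraries in each. H2R is the H2 histamine receptor, and the labels do not state how it was removed, in which cells, or whether 2 libraries of one group are 2 animals. P-values here thus reflect the spread between libraries only, part of which may be technical, and an exact permutation test of 2 libraries against 2 cannot go below p = 0.333.

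MYC pairs with MAX and binds the E-box sequence CACGTG, where the pair recruits histone acetyltransferases and raises transcription of genes for ribosome assembly, nucleotide synthesis and growth. MXD1, MXD3, MXD4, MXI1 and MNT pair with the same MAX, bind the same sequence and recruit SIN3 corepressors with histone deacetylases. MXD1 (also called MAD1) is known from granulocyte differentiation, in which MYC is switched off and MXD1 is switched on. In GRCm38, the build of the files, Mxd1 (ENSMUSG00000001156) lies on the minus strand at chr6:86647042-86669161, Myc (ENSMUSG00000022346) on the plus strand at chr15:61985391-61990374 and Max (ENSMUSG00000059436) on the minus strand at chr12:76937269-76962248.

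Promoter windows from 250 bases before to 50 bases after a start site were read from RefSeq, build GRCm38.p6, for 8 of the 9 genes, in 10 windows. The palindrome CACGTG was found in 4 of the 10 windows, those of Max, Mxd4, Mnt and Mlx, and in 7.15% of all promoter windows of the same length. The 4 sites are shown because CACGTG is the sequence that MAX pairs bind, with the motif in capitals and 15 bases on each side.
Max, chr12:76962231-76962266, minus strand, motif starting 3 bases upstream of the start site: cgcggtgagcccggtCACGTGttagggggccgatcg
Mxd4, chr5:34187909-34187944, minus strand, motif starting 219 bases upstream: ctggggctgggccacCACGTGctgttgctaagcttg
Mnt, chr11:74830786-74830821, plus strand, motif starting 123 bases upstream: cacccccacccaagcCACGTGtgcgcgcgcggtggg
Mlx, chr11:101087235-101087270, plus strand, motif starting 40 bases upstream: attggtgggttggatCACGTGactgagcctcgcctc

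The window of Mxd1, by far the most abundant of the 9 transcripts, held no CACGTG. It held 4 matches of CCAAT, the letters bound by NF-Y, and 6 of GGGCGG, a GC box bound by SP1-type factors, with both strands searched. A pair of the GGGCGG matches overlap each other, and none overlaps a CCAAT. Of all promoter windows 37.4% held a CCAAT and 35.7% a GGGCGG. The whole window is shown with CCAAT in capitals, and a match is a description of the letters, not of binding.
Mxd1, chr6:86669110-86669409, minus strand: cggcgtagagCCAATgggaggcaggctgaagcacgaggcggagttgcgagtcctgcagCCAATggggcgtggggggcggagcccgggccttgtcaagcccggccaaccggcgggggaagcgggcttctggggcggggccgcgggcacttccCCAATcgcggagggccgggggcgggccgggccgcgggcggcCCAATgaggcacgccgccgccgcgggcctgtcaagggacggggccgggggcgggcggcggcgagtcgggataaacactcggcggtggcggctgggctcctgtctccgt

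The libraries held 19862716 to 24199215 counts each, so that 3 counts, the floor used here for a gene with no read, correspond to 0.124 to 0.151 CPM, where CPM are counts scaled to a common library size. These limits cover counting error only. The 24 mature neutrophil genes, such as Cxcr2, Csf3r and S100a8, summed to 35675.5 and 46118.2 CPM of library totals in H2R-deficient low-density cells and to 67494.6 and 67567.6 CPM in H2R-deficient high-density cells. They summed to 50942.7 and 63736.3 CPM in wild-type low-density cells and to 66622.1 and 69212.8 CPM in wild-type high-density cells, and all 24 were detected in every library. B cell markers were higher in the low-density libraries. These 12 genes summed to 3193.2 and 3237.7 CPM in H2R-deficient low-density cells, against 86.5 and 116.9 CPM in H2R-deficient high-density cells. In wild-type cells they summed to 544.4 and 1508.6 CPM at low density, against 114.5 and 119 CPM at high density. Hrh2, the gene of the receptor, had 10.2 to 27 CPM in the 4 H2R-deficient libraries and 28 to 91.7 CPM in the 4 wild-type libraries. Which exons were removed is not given, so reads of Hrh2 do not settle its loss.

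Levels below are CPM over library sizes scaled by TMM (trimmed mean of M values) unless another scale is named, and differences are log2 fold changes ± SE from edgeR's quasi-likelihood fit to all 8 libraries, called at an adjusted p under 0.05 over 14909 genes. The choice of scale matters for density, because it moves every gene together. In H2R-deficient cells the median gene differed between low and high density by 0.10 (log2) after TMM, by 1.0 after scaling to library totals only and by 1.75 after scaling to the mature neutrophil genes. In wild-type cells these medians were 0.10, 0.67 and 0.93. TMM differences are therefore close to differences relative to the median gene.

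Per kilobase of exon, Mxd1 stood far above the rest of the network in every library. It averaged 379.1 ± 35.8 CPM per kilobase in H2R-deficient low-density cells and 1199.5 ± 13.2 in H2R-deficient high-density cells (SD, n = 2 each). It averaged 565.3 ± 80.8 CPM per kilobase in wild-type low-density cells and 1035.0 ± 139.3 in wild-type high-density cells (SD, n = 2 each). By this measure it took place 53 to 86 among the 14909 genes in the 8 libraries and made up 84.3% to 91% of the summed level of the 9 genes. Max took place 2 and Mnt place 3 of the 9 in every group. Mxd4 took place 8 and Mxd3 place 9 in every group by the mean, although they overlapped in H2R-deficient high-density cells, at 0.827 and 1.11 CPM per kilobase for Mxd4 and 0.421 and 1.13 for Mxd3.

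In the middle of the order Myc changed its place between the groups. Its mean level per kilobase took place 4 of the 9 in H2R-deficient low-density cells and place 7 in H2R-deficient high-density cells, place 5 in wild-type low-density cells and place 7 in wild-type high-density cells. In H2R-deficient low-density cells the range of Myc, 6.89 to 9.15 CPM per kilobase, overlapped that of Mlx, 6.63 to 7.62. In wild-type low-density cells it overlapped that of Mxi1, and in wild-type high-density cells that of Mxd4, so these neighbours in the order do not differ beyond their spread. Mlx and Mxi1 overlapped in both high-density groups, and Mxi1 and Mga overlapped in H2R-deficient low-density cells.

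**Figure D1:**
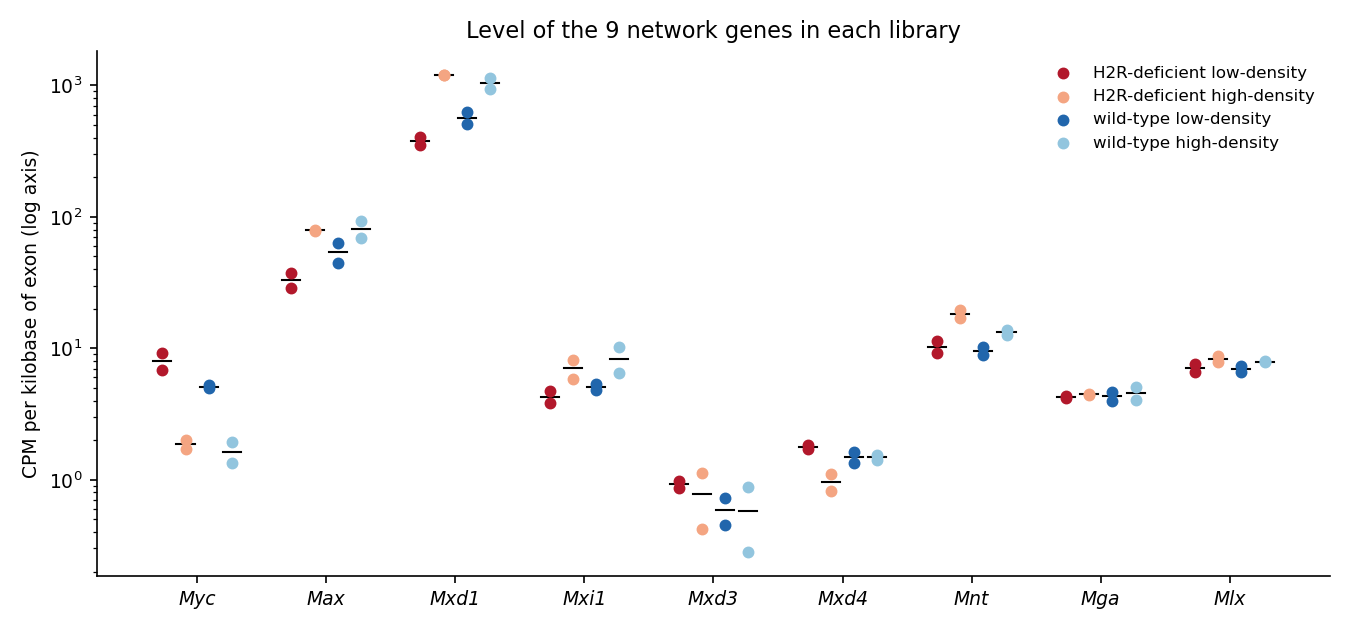
Level of each of the 9 network genes in each library, in TMM-scaled CPM per kilobase of exon on a log axis, with the 4 groups in the order of the legend. Points are libraries and bars are group means of 2 libraries. Mxd1 lies near 379.1 to 1199.5 CPM per kilobase, and Myc is higher in both low-density groups than in the high-density group of the same genotype.

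Myc, the activating member, rose with low density in both genotypes. It had 18.7 and 24.9 CPM in H2R-deficient low-density cells, against 4.67 and 5.49 CPM in H2R-deficient high-density cells. At low density the wild-type libraries had 13.5 and 14.3 CPM, against 3.65 and 5.25 CPM at high density. Each low-density library exceeded every high-density library. The log2 fold change was 2.10 ± 0.25 in H2R-deficient cells, a 4.29-fold higher level (edgeR adjusted p = 0.000318), and 1.64 ± 0.25 in wild-type cells, a 3.12-fold higher level (edgeR adjusted p = 0.00871). Relative to the median gene it was higher by 1.98 to 2.00 (log2) in H2R-deficient cells and by 1.53 to 1.54 in wild-type cells. These values are nearly the same under the 3 scalings by construction, because a scaling moves all genes together. The call in wild-type cells was lost without replicate 2 of the wild-type high-density cells, where the log2 fold change was 1.40 (edgeR adjusted p = 0.0681).

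Markers of cycling, of B cells and of dendritic cells were higher at low density, as Myc was. The 20 proliferation genes summed to 735.9 and 472.5 CPM of library totals in H2R-deficient low-density cells (replicates 1 and 2), against 93.6 and 92.8 CPM in H2R-deficient high-density cells. In wild-type cells they summed to 376.6 and 272.7 CPM at low density (replicates 2 and 4), against 102.5 and 142.6 CPM at high density. The 10 dendritic cell markers summed to 775.1 and 1012.8 CPM in H2R-deficient low-density cells against 83 and 83.2 CPM in H2R-deficient high-density cells, and to 683.1 and 349.4 CPM in wild-type low-density cells against 103.3 and 134.4 CPM in wild-type high-density cells. Of all genes tested, 30.0% were called higher and 23.9% lower at low density in H2R-deficient cells, and 8.51% and 4.15% in wild-type cells. By the same calls, 12 of 12 B cell markers rose in H2R-deficient cells and 10 of 12 in wild-type cells. Of the dendritic cell markers 7 and 6 of 10 rose, with 1 lower in H2R-deficient cells. None of the B cell or dendritic cell markers was at 0 in a library, and of the proliferation genes only Cdc20 was at 0, in replicate 2 of the H2R-deficient high-density cells. Of the macrophage markers 8 of 12 rose and 1 fell in H2R-deficient cells. Of the T and NK cell markers 4 of 12 rose there, near the share of all genes, and 1 fell. In wild-type cells 0 of 12 macrophage markers passed in either direction and 4 of 12 T and NK cell markers rose. Of 5 erythroid markers tested, 5 were lower at low density in both genotypes, and of 7 eosinophil markers 1 was higher in each genotype, with 3 lower in H2R-deficient and 4 lower in wild-type cells. The part of these cells in the rise of Myc was not tested. In bulk samples, fewer cells of a type and less RNA per cell cannot be told apart.

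Max, whose protein is the shared partner of the activator and the repressors, moved the other way on the TMM scale. It had 58 and 75.5 CPM in H2R-deficient low-density cells, against 160.1 and 156.1 CPM in H2R-deficient high-density cells. The wild-type values were 89.2 and 126.3 CPM at low density, against 186.4 and 139 CPM at high density. The groups did not overlap in either genotype, but the wild-type libraries came close. Max fell in H2R-deficient cells by 1.24 on the log2 scale, with an SE of 0.24 (edgeR adjusted p = 0.00231), while with library totals only it was -0.35 (edgeR adjusted p = 0.172) and with neutrophil scaling it was 0.38 (edgeR adjusted p = 0.255). The difference in wild-type cells, -0.59 ± 0.23, did not pass (edgeR adjusted p = 0.111). Relative to the median gene, Max was at -1.34 to -1.37 in H2R-deficient cells and at -0.69 to -0.72 in wild-type cells. As for Myc, the closeness of these values under the 3 scalings is by construction.

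Mxd1, the leading repressor, had 2502.3 and 2859.9 CPM in H2R-deficient low-density cells, against 8549.2 and 8417 CPM in H2R-deficient high-density cells. Wild-type libraries had 3593.6 and 4402.1 CPM at low density, against 8016.1 and 6623.4 CPM at high density. These are the values for which the gene was picked, with log2 fold changes of -1.66 ± 0.21 in H2R-deficient cells and -0.87 ± 0.20 in wild-type cells after TMM. They were -0.76 and -0.31 with library totals only, and -0.02 and -0.05 with neutrophil scaling.

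Set against the mature neutrophil genes themselves, Mxd1 was nearly level. It had 104.6 and 83.3 counts per 1000 counts of the 24 mature neutrophil genes in H2R-deficient low-density cells, and 97.6 and 92.5 in H2R-deficient high-density cells. Among wild-type libraries it had 87.6 and 76.8 at low density, and 90 and 80.2 at high density. The low-density and high-density libraries overlapped in both genotypes. Mxd1 is not in the list of 24 genes. Max on this scale had 2.43 and 2.2 in H2R-deficient low-density cells and 1.83 and 1.71 in H2R-deficient high-density cells, and Myc had 0.783 and 0.724 against 0.0534 and 0.0603 in the same groups.

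**Figure D2:**
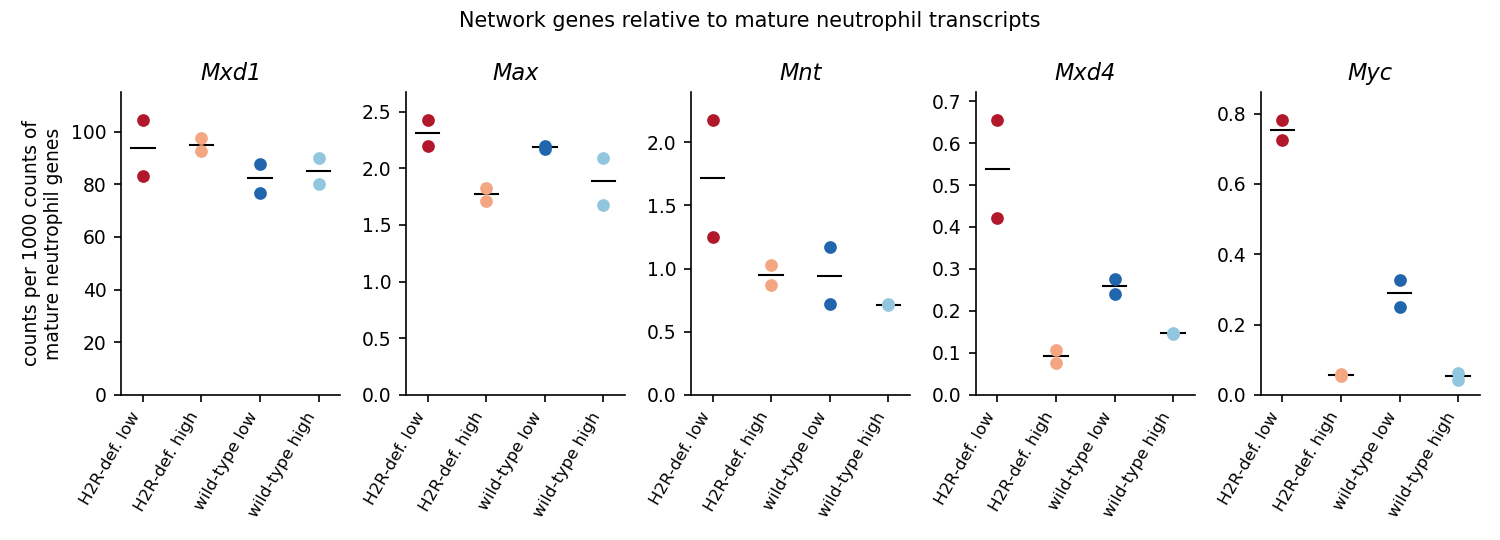
Counts of Mxd1, Max, Mnt, Mxd4 and Myc per 1000 counts of 24 mature neutrophil genes in each library, with the 4 groups along the axis of each panel. Points are libraries and bars are group means of 2 libraries, and each vertical axis starts at 0. Mxd1 spans 76.8 to 104.6 with overlapping groups, while Myc spans 0.25 to 0.783 in low-density libraries and 0.041 to 0.0636 in high-density libraries.

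Mxi1, a MAX-binding repressor of the MXD family, had 21.7 and 26.5 CPM in H2R-deficient low-density cells, against 46.1 and 33.1 CPM in H2R-deficient high-density cells. The wild-type values were 27.3 and 29.8 CPM at low density, against 57.4 and 36.4 CPM at high density. The high-density libraries of a group stood apart from each other, yet all were above the low-density ones of their genotype. The log2 fold change was -0.72 ± 0.26 in both genotypes. It passed in H2R-deficient cells (edgeR adjusted p = 0.0394) and not in wild-type cells (edgeR adjusted p = 0.0876), where it passed with DESeq2 (adjusted p = 0.0428), without the filter (edgeR adjusted p = 0.0232) and without replicate 4 of the wild-type high-density cells (0.0405). The H2R-deficient call was lost without either H2R-deficient low-density library (edgeR adjusted p = 0.195 without replicate 1 and 0.0651 without replicate 2), without replicate 1 of the H2R-deficient high-density cells (0.242) and without either wild-type low-density library (0.0533 without replicate 2 and 0.0702 without replicate 4). With library totals only the H2R-deficient difference of Mxi1 was 0.18 and with neutrophil scaling 0.92.

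Mnt, a broadly expressed MAX-binding repressor, had 52.2 and 42.9 CPM in H2R-deficient low-density cells, against 90.2 and 78.9 CPM in H2R-deficient high-density cells. Wild-type libraries had 47.8 and 41.3 CPM at low density, against 64.2 and 58.7 CPM at high density. The groups did not overlap. Mnt fell in H2R-deficient cells by 0.83 on the log2 scale, with an SE of 0.18 (edgeR adjusted p = 0.00447), while it was 0.08 with library totals only and 0.86 with neutrophil scaling. In wild-type cells it was at -0.46 ± 0.18 and did not pass (edgeR adjusted p = 0.11).

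Mxd4 was the one repressor called higher at low density after TMM, and only in H2R-deficient cells. It had 15.7 and 14.5 CPM in H2R-deficient low-density cells, against 9.4 and 7.02 CPM in H2R-deficient high-density cells. Among wild-type libraries it had 11.3 and 13.7 CPM at low density, and 13.1 and 12 CPM at high density. The H2R-deficient groups did not overlap, and the wild-type groups did. The log2 fold change was 0.87 ± 0.21 in H2R-deficient cells (edgeR adjusted p = 0.00752) and 0.00 ± 0.21 in wild-type cells (edgeR adjusted p = 0.996). The difference between these 2 effects, 0.88 ± 0.30, did not pass (edgeR adjusted p = 0.148), but passed with neutrophil scaling, at 1.72 (edgeR adjusted p = 0.0202), and the H2R-deficient call was lost without replicate 2 of the high-density cells (log2 fold change 0.68, edgeR adjusted p = 0.0508). The exons of Mxd4 share 514 bases with the antisense gene Gm42846, which had 0 counts in every library.

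Mxd3, the MXD member known from dividing cells, was barely detected, with 74 and 51 counts in H2R-deficient low-density cells, 15 and 37 in H2R-deficient high-density cells, 37 and 24 in wild-type low-density cells and 10 and 31 in wild-type high-density cells. The log2 fold changes of 0.26 ± 0.59 in H2R-deficient cells and 0.01 ± 0.62 in wild-type cells did not pass (edgeR adjusted p = 0.728 and 0.992). Counts this low and this spread leave a difference on the TMM scale unresolved. With neutrophil scaling the H2R-deficient difference was 1.94 and passed (edgeR adjusted p = 0.00379), where the median gene stood at 1.75. Mxd3 shares 105 exon bases with the antisense gene Prelid1, which had 3012 to 5036 counts, and the strand setting of the counting is not given. Counts of Mxd3 may therefore hold reads of Prelid1.

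Mga and Mlx, the members with other partners, lay near the median gene. MGA joins MAX to a Polycomb complex, and MLX pairs with the glucose sensors MondoA and ChREBP instead of MAX. Mga had 66.7 and 63.8 CPM in H2R-deficient low-density cells, 68.3 and 69 in H2R-deficient high-density cells, 71.6 and 61.2 in wild-type low-density cells and 62.4 and 77.7 in wild-type high-density cells. Mlx had 13.2 and 15.2 CPM in H2R-deficient low-density cells, 15.8 and 17.5 in H2R-deficient high-density cells, 13.1 and 14.7 in wild-type low-density cells and 15.6 and 15.9 in wild-type high-density cells. In H2R-deficient cells the density differences were -0.07 ± 0.18 for Mga and -0.22 ± 0.18 for Mlx (edgeR adjusted p = 0.739 and 0.305). In wild-type cells they were -0.08 ± 0.18 for Mga and -0.18 ± 0.18 for Mlx (edgeR adjusted p = 0.782 and 0.505). In H2R-deficient cells both rose with library totals only, by 0.83 for Mga and 0.68 for Mlx (edgeR adjusted p = 0.0067 and 0.0109), where the median gene stood at 1.0. Mlx shares 385 exon bases with the antisense gene Psmc3ip, which had 2 to 58 counts.

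Counted without Mxd1, 2 of the 8 other members were called higher and 3 lower in H2R-deficient low-density cells than in high-density cells. Of all genes tested, 30.0% were called higher and 23.9% lower in that comparison. In wild-type cells 1 of the 8, Myc, was called higher and 0 lower, with 8.51% of all genes called higher and 4.15% lower. For the lower calls in wild-type cells, 3 of the 8 had an unadjusted p under 0.05 in edgeR, DESeq2 called 1 and limma-voom 0. By these measures 2023, 1426 and 593 of all 14909 genes were lower in wild-type cells. With library totals only the H2R-deficient count was 4 higher and 0 lower, and the wild-type count stayed at 1 higher and 0 lower. With neutrophil scaling it was 7 higher and 0 lower in H2R-deficient cells, and 2 higher and 0 lower in wild-type cells. Library totals called 7690 of the 14909 genes higher and 387 lower in H2R-deficient cells, and 4822 higher and 124 lower in wild-type cells. Neutrophil scaling called 10977 of the 14909 genes higher and 36 lower in H2R-deficient cells, and 5965 higher and 74 lower in wild-type cells.

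**Figure D3:**
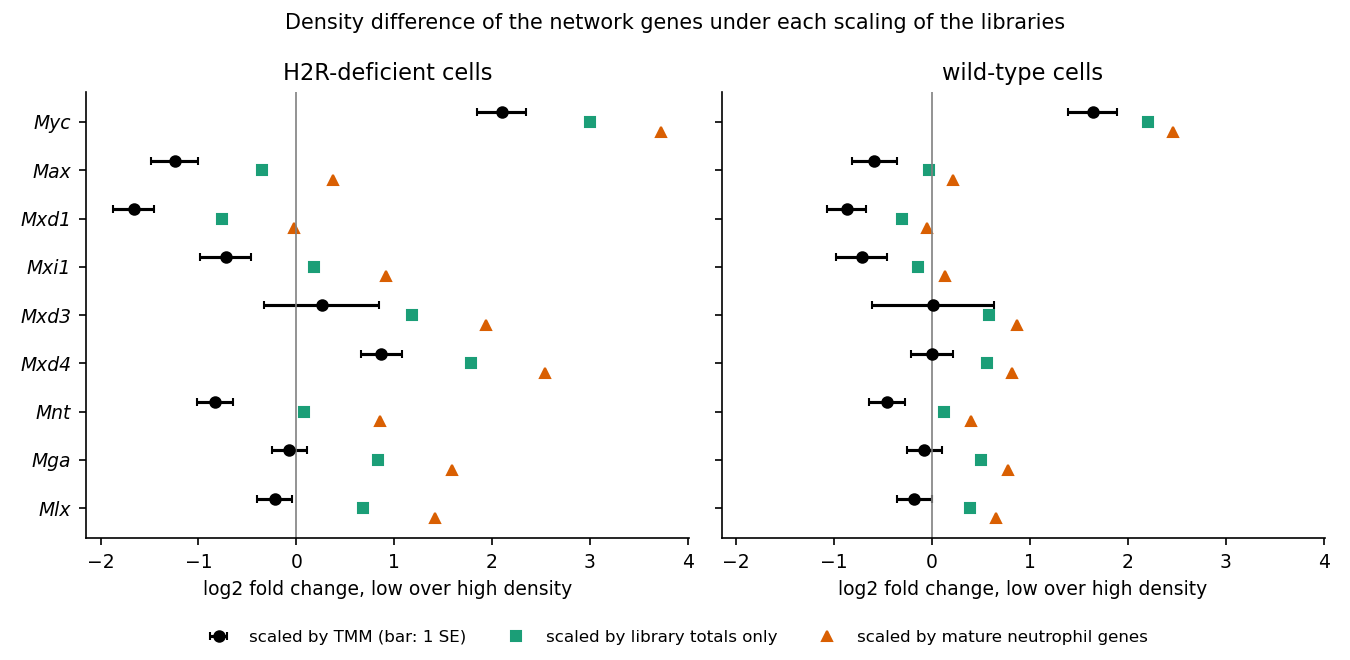
Log2 fold change of low over high density for the 9 genes in H2R-deficient cells on the left and wild-type cells on the right, after TMM (circles, bars of 1 SE), after scaling to library totals only (squares) and after scaling to mature neutrophil genes (triangles). All genes shift together with the scaling. Myc is above 0 under each of the 3, and Mxd1 lies at -0.02 and -0.05 with neutrophil scaling.

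The balance between the members shifted with density. Per kilobase, there were 51.3 and 44.2 Mxd1 for each Myc in H2R-deficient low-density cells, against 703 and 589.2 in H2R-deficient high-density cells. In wild-type cells there were 102.6 and 118 at low density, against 843 and 484.4 at high density. This ratio uses the values that chose Mxd1 and is a description. Myc per Max, per kilobase, was 0.238 and 0.243 in H2R-deficient low-density cells, against 0.0215 and 0.0259 in H2R-deficient high-density cells. In wild-type cells it was 0.111 and 0.0837 at low density, against 0.0145 and 0.0279 at high density. Even in the libraries with most Myc, the Max level was thus several times that of Myc, and Mxd1 exceeded both.

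Between genotypes, 0 of the 8 members other than Mxd1 were called in low-density cells, where 0% of all genes were called by edgeR. At an unadjusted p under 0.05 edgeR had 1 of the 8 higher and 1 lower, and DESeq2 and limma-voom called 0. Over all genes in low-density cells edgeR had 3128 at an unadjusted p under 0.05, DESeq2 called 870 and limma-voom 8. Myc averaged 21.8 ± 4.33 CPM in H2R-deficient low-density cells and 13.9 ± 0.618 CPM in wild-type low-density cells (SD, n = 2 each). Its log2 fold change was 0.65 ± 0.23 (edgeR adjusted p = 0.168), with both H2R-deficient libraries above both wild-type ones, and 1.38 with neutrophil scaling, which passed (edgeR adjusted p = 0.00595). With that scaling Mxd4 and Mnt also passed, at 1.06 and 0.87 (edgeR adjusted p = 0.0279 and 0.0424). It called 4181 of all 14909 genes higher and 25 lower in this comparison, and put the median gene at 0.82. Max averaged 66.8 ± 12.4 CPM in H2R-deficient low-density cells and 107.7 ± 26.3 CPM in wild-type low-density cells (SD, n = 2 each), a log2 fold change of -0.69 ± 0.23 (edgeR adjusted p = 0.155), which passed without the filter on low counts, at -0.66 (edgeR adjusted p = 0.0436). Mxd1 was at -0.58 ± 0.20 in the same comparison, given without a test.

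In high-density cells 0 of the 8 members other than Mxd1 were called between genotypes, where 0.208% of all genes were called. Of the 14909 genes tested, 2788 had an unadjusted p under 0.05 in edgeR in this comparison. DESeq2 called 677 of all genes and limma-voom 3. At an unadjusted p under 0.05 edgeR had 1 of the 8 members lower and 1 higher, and DESeq2 and limma-voom called 0 of the 8. These were Mxd4, at 8.21 ± 1.68 CPM in H2R-deficient high-density cells and 12.6 ± 0.735 CPM in wild-type high-density cells (SD, n = 2 each), and Mnt, at 84.6 ± 8.03 and 61.4 ± 3.89 CPM in the same groups. Their log2 fold changes were -0.61 ± 0.21 for Mxd4 (edgeR adjusted p = 0.184) and 0.46 ± 0.18 for Mnt (edgeR adjusted p = 0.22). Mxd1 was at 0.21 ± 0.20, given without a test. Myc averaged 5.08 ± 0.577 CPM in H2R-deficient and 4.45 ± 1.13 CPM in wild-type high-density cells (SD, n = 2 each).

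The density effect itself differed between genotypes for 0 of the 8 members other than Mxd1, against 0% of all genes by edgeR. One member, Mxd4, had an unadjusted p under 0.05, and DESeq2 and limma-voom called 0 of the 8. With neutrophil scaling Mxd4 was called, as given above, where 2038 of all 14909 genes were called higher and 6 lower. Over all genes edgeR had 3150 at an unadjusted p under 0.05, DESeq2 called 946 and limma-voom 0. The difference of effects was 0.46 ± 0.34 for Myc (edgeR adjusted p = 0.47) and -0.65 ± 0.33 for Max (edgeR adjusted p = 0.288). The larger fold change of Myc in H2R-deficient cells is thus not shown to differ from that in wild-type cells.

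Among the other MYC-family genes and MLX partners, Mycl had 43 and 35 counts in H2R-deficient low-density cells, against 2 and 0 in H2R-deficient high-density cells. The wild-type values were 9 and 15 counts at low density, against 0 and 5 at high density. Mycl, known from dendritic cells, was called higher in H2R-deficient low-density cells (edgeR adjusted p = 0.0114) and not in wild-type cells (edgeR adjusted p = 0.282). The H2R-deficient call was lost without replicate 2 of the high-density cells (edgeR adjusted p = 0.0653), and counts this low give no firm fold. Mlxip, which encodes MondoA, overlapped between densities, at 71.2 and 94.7 CPM in H2R-deficient low-density cells and 73.8 and 83.7 CPM in H2R-deficient high-density cells, with a log2 fold change of 0.07 ± 0.19 (edgeR adjusted p = 0.755). Mycn, with 0 to 2 counts, and Mlxipl, with 0 to 11 counts, were too low to test.

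Nucleolar genes known as MYC targets, which build ribosomes, rose together with low density. Of 24 such genes 24 were called higher and 0 lower in H2R-deficient cells, with a median log2 fold change of 2.20, where 30.0% of all genes were called higher and their median was 0.10. In wild-type cells 18 of 24 were called higher and 0 lower, with a median of 1.0, where 8.51% of all genes were called higher. With library totals only, 24 of 24 were called higher in both genotypes. That scaling called 7690 of all 14909 genes higher in H2R-deficient cells and 4822 in wild-type cells. Of the 24, edgeR, DESeq2 and limma-voom each found 0 lower, as did edgeR at an unadjusted p under 0.05. Nop58, a core protein of box C/D snoRNPs, had 33.8 and 43.8 CPM in H2R-deficient low-density cells against 6.48 and 7.21 CPM in H2R-deficient high-density cells. Its log2 fold change was 2.5 ± 0.20 in H2R-deficient cells and 0.96 ± 0.19 in wild-type cells (edgeR adjusted p = 0.000177 and 0.0192). Fbl, the rRNA methyltransferase fibrillarin, was at 2.43 ± 0.21 and 0.82 ± 0.20, and Nolc1, a snoRNP chaperone, at 2.55 ± 0.24 and 1.43 ± 0.23, in H2R-deficient and wild-type cells. Pa2g4, a growth-regulated ribosome-binding protein, was at 2.74 ± 0.21 and 1.06 ± 0.20. Between genotypes in low-density cells the 24 nucleolar genes had a median log2 fold change of 0.82, where that of all genes was 0.05. By edgeR 0 of the 24 were called there, with 22 higher at an unadjusted p under 0.05, while DESeq2 called 12 higher and limma-voom 0. Of all 14909 genes 1596 were higher at an unadjusted p under 0.05 in edgeR, and DESeq2 called 367 higher and limma-voom 4. The proliferation, B cell and dendritic cell markers given beside Myc moved in the same direction, and their part in these lists was not tested.

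Of 30 metabolic and growth genes known as MYC targets, 22 were called higher and 4 lower in H2R-deficient low-density cells, with a median log2 fold change of 1.77, where 30.0% and 23.9% of all genes were called. In wild-type cells 10 were called higher and 1 lower, with a median of 0.48, where 8.51% and 4.15% of all genes were called. Cad, which starts pyrimidine synthesis, had 26.9 and 22.1 CPM in H2R-deficient low-density cells against 3.8 and 2.74 CPM in H2R-deficient high-density cells. Its log2 fold change was 2.90 ± 0.26 in H2R-deficient cells and 1.86 ± 0.25 in wild-type cells (edgeR adjusted p = 0.000197 and 0.00645). Cdc25a, a cell-cycle phosphatase, rose by 3.55 ± 0.32 in H2R-deficient cells and by 1.5 ± 0.29 in wild-type cells. Impdh2, of guanine nucleotide synthesis, rose by 2.27 ± 0.20 in H2R-deficient cells and was at 0.64 ± 0.19 in wild-type cells, where it did not pass (edgeR adjusted p = 0.0559). Hspd1, the mitochondrial chaperonin, rose by 1.93 ± 0.19 in H2R-deficient cells and by 0.93 ± 0.19 in wild-type cells. The 4 lower calls in H2R-deficient cells, named after their values were seen, were the glycolytic genes Pkm, Eno1 and Ldha and the amino acid transporter subunit Slc3a2, at -1.04 ± 0.17, -0.74 ± 0.18, -0.61 ± 0.19 and -1.07 ± 0.19. On the TMM scale the summed level of the 30 genes was lower at low density in H2R-deficient cells. It was 4179.2 and 4345.7 CPM at low density against 6547.5 and 6561.5 CPM at high density. In CPM of library totals the same sum was higher at low density, at 6232.9 and 5836.4 against 5052.2 and 4865.8. Library totals gave 25 higher and 0 lower in H2R-deficient cells, where they called 7690 of all 14909 genes higher and 387 lower. Neutrophil scaling gave 29 higher and 0 lower there, where it called 10977 of all genes higher and 36 lower.

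On the TMM scale the polyamine pathway split. Of its 10 genes 3 were called higher and 5 lower in H2R-deficient cells (median log2 fold change -0.07), where 30.0% and 23.9% of all genes were called, and 2 higher and 1 lower in wild-type cells (median -0.23), where 8.51% and 4.15% were called. In H2R-deficient cells the counts were 6 higher and 1 lower with library totals only, and 6 higher and 0 lower with neutrophil scaling. Of all 14909 genes, library totals called 7690 higher and 387 lower there, and neutrophil scaling 10977 higher and 36 lower. The synthases rose, Srm (spermidine synthase) by 3.68 ± 0.37 in H2R-deficient cells and 2.11 ± 0.36 in wild-type cells, and Sms (spermine synthase) by 1.54 ± 0.24 and 0.90 ± 0.23. Sat1, which acetylates polyamines for breakdown, was at -1.19 ± 0.19 in H2R-deficient cells and -0.85 ± 0.19 in wild-type cells, both called (edgeR adjusted p = 0.00114 and 0.0259), but at 0.46 with neutrophil scaling in H2R-deficient cells. Azin1, an inhibitor of antizyme, was called in H2R-deficient cells at -1.16 ± 0.20 and was at 0.48 there with neutrophil scaling.

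Of 4 targets of MondoA and MLX tested, 0 were called higher and 3 lower in H2R-deficient cells on the TMM scale (median -1.21), where 23.9% of all genes were called lower, and 0 higher and 1 lower in wild-type cells (median -0.51), where 4.15% were called lower. Library totals gave 1 higher and 1 lower in H2R-deficient cells, where they called 7690 of all 14909 genes higher and 387 lower. The remaining gene, Tkfc, was at 0.52 ± 0.26 in H2R-deficient and 0.10 ± 0.26 in wild-type cells and did not pass. No gene of the list had an unadjusted p under 0.05 for a higher level in edgeR, and DESeq2 and limma-voom called 0 higher. Txnip, a glucose-induced inhibitor of glucose uptake, had 386.3 and 330 CPM in H2R-deficient low-density cells, against 1409.1 and 890.2 CPM in H2R-deficient high-density cells. Its log2 fold change was -1.68 ± 0.26 in H2R-deficient cells (edgeR adjusted p = 0.000885) and -0.42 ± 0.25 in wild-type cells (edgeR adjusted p = 0.264). Its relative Arrdc4 was called in both, at -1.27 ± 0.22 in H2R-deficient and -1.0 ± 0.22 in wild-type cells. With neutrophil scaling Arrdc4 was at 0.37 and Klf10, called at -1.16 ± 0.22 with TMM, at 0.53 in H2R-deficient cells. The list then had 1 gene called higher and 0 lower, where 10977 of all 14909 genes were called higher and 36 lower.

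Of 13 SIN3 and NCOR corepressor genes, 3 were called higher and 4 lower in H2R-deficient cells (median -0.23), where 30.0% and 23.9% of all genes were called, and 1 higher and 2 lower in wild-type cells (median -0.38), where 8.51% and 4.15% of all genes were called. In H2R-deficient cells the counts were 8 higher and 0 lower with library totals only, and 12 higher and 0 lower with neutrophil scaling. Of all 14909 genes, library totals called 7690 higher and 387 lower there, and neutrophil scaling 10977 higher and 36 lower. Rbbp7, a histone-binding subunit, rose by 1.66 ± 0.18 in H2R-deficient and 0.68 ± 0.18 in wild-type cells, and Hdac2, a histone deacetylase, rose by 1.54 ± 0.21 in H2R-deficient cells and was at 0.49 ± 0.20 in wild-type cells. Arid4b, another SIN3 subunit, was called at -0.98 ± 0.17 in H2R-deficient and -0.75 ± 0.17 in wild-type cells. Sin3b, a scaffold of the complex, was called at -0.82 ± 0.16 in H2R-deficient cells and was at -0.47 ± 0.16 in wild-type cells, where it did not pass (edgeR adjusted p = 0.0708). With neutrophil scaling Arid4b was at 0.65 and Sin3b at 0.84 in H2R-deficient cells, and Sin3b was at 0.09 with library totals only.

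Of 13 MYC coactivator genes, 5 were called higher and 4 lower in H2R-deficient cells (median -0.20), where 30.0% and 23.9% of all genes were called. In wild-type cells 2 were called higher and 0 lower (median -0.07), where 8.51% and 4.15% of all genes were called. Library totals gave 6 higher and 0 lower in H2R-deficient cells, where they called 7690 of all 14909 genes higher and 387 lower. Neutrophil scaling gave 11 higher and 0 lower there, where it called 10977 of all genes higher and 36 lower. The acetyltransferase gene Kat2a rose by 2.41 ± 0.29 in H2R-deficient and 1.09 ± 0.28 in wild-type cells, and the ATPase gene Ruvbl1 by 2.21 ± 0.30 and 1.07 ± 0.29. Actl6a, a chromatin-remodelling subunit, rose by 2.15 ± 0.32 in H2R-deficient cells and was at 1.07 ± 0.31 in wild-type cells (edgeR adjusted p = 0.0536). Ep300, an acetyltransferase, was called at -1.33 ± 0.18 in H2R-deficient cells and was at 0.32 there with neutrophil scaling. For the 0 lower calls in wild-type cells, 1 of 13 had an unadjusted p under 0.05 in edgeR, DESeq2 called 1 and limma-voom 0. By these measures 2023, 1426 and 593 of all 14909 genes were lower in wild-type cells.

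Of 17 genes that set MYC protein stability, 8 were called higher and 4 lower in H2R-deficient cells (median 0.71), where 30.0% and 23.9% of all genes were called. In wild-type cells 2 were called higher and 1 lower (median 0.11), where 8.51% and 4.15% of all genes were called. Library totals gave 12 higher and 0 lower in H2R-deficient cells, where they called 7690 of all 14909 genes higher and 387 lower. Neutrophil scaling gave 16 higher and 0 lower there, where it called 10977 of all genes higher and 36 lower. Cip2a, an inhibitor of the phosphatase that destabilizes MYC, rose by 3.33 ± 0.54 in H2R-deficient and 2.14 ± 0.50 in wild-type cells. Huwe1, a ubiquitin ligase, rose by 1.29 ± 0.24 in H2R-deficient cells and was at 0.62 ± 0.24 in wild-type cells. Pim1, a kinase that stabilizes MYC, was called at -1.21 ± 0.19 in H2R-deficient and -0.89 ± 0.19 in wild-type cells. Gsk3a, a kinase of the family that marks MYC for breakdown, was called at -0.92 ± 0.17 in H2R-deficient cells, and with neutrophil scaling Pim1 was at 0.43 and Gsk3a at 0.75 there.

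Of 9 genes for partners of MGA in its Polycomb complex, 5 were called higher and 3 lower in H2R-deficient cells (median 1.28), where 30.0% and 23.9% of all genes were called. In wild-type cells 1 was called higher and 1 lower (median 0.10, that of all genes), where 8.51% and 4.15% of all genes were called. Library totals gave 6 higher and 0 lower in H2R-deficient cells, where they called 7690 of all 14909 genes higher and 387 lower. Neutrophil scaling gave 8 higher and 0 lower there, where it called 10977 of all genes higher and 36 lower. The 3 lower calls, named after their values were seen, were Rybp, Rnf2 and Yaf2, at -1.53 ± 0.28, -0.87 ± 0.17 and -0.64 ± 0.22. Cbx3, which encodes the chromatin reader HP1 gamma, rose by 2.16 ± 0.21 in H2R-deficient cells and was at 0.49 ± 0.20 in wild-type cells. Pcgf6, the subunit that defines the complex, rose by 2.80 ± 0.47 in H2R-deficient and 2.25 ± 0.47 in wild-type cells. Further subunits rose in the H2R-deficient comparison, E2f6 by 3.47 ± 0.49 and L3mbtl2 by 2.5 ± 0.46, and neither passed in wild-type cells (edgeR adjusted p = 0.0693 and 0.0998).

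**Figure D4:**
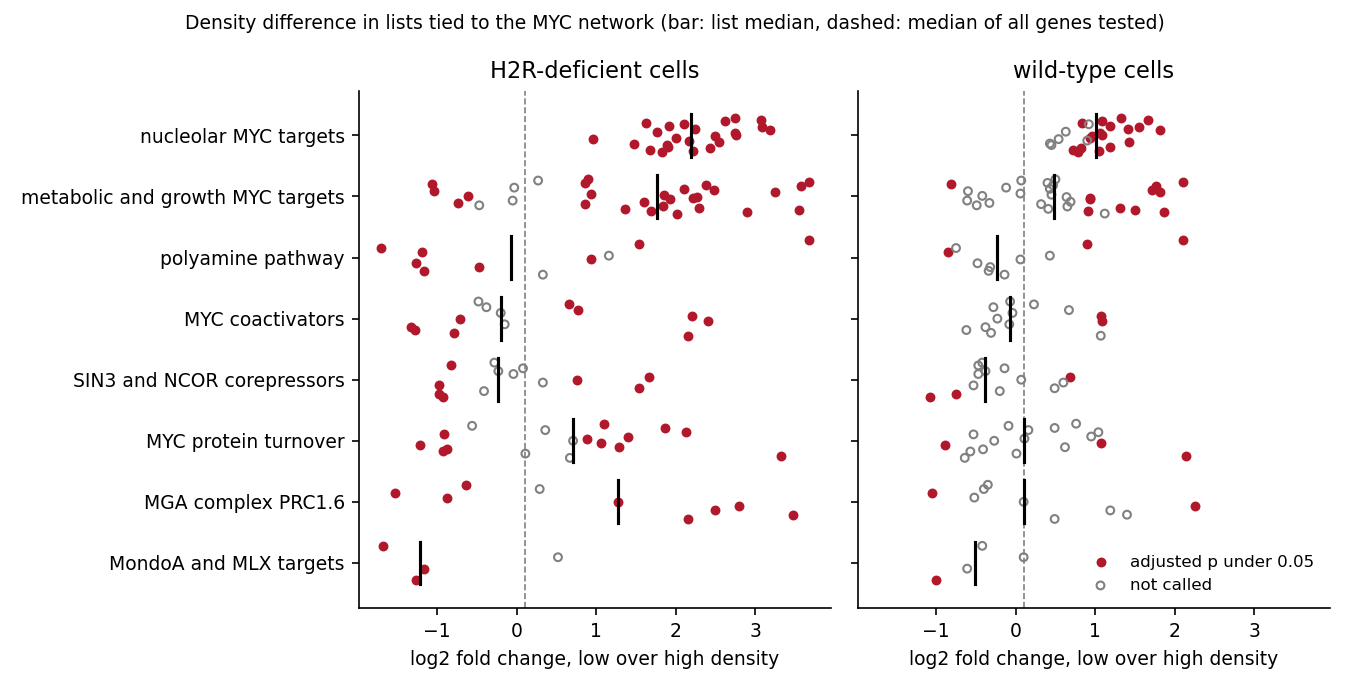
Log2 fold change of low over high density (TMM) for the genes of 8 lists tied to the MYC network, in H2R-deficient cells on the left and wild-type cells on the right. Each point is a gene, filled where its edgeR adjusted p is under 0.05, thick bars are list medians and the dashed line is the median of all genes tested, 0.10. The nucleolar genes are all above 0, with medians of 2.20 and 1.0, and the MondoA and MLX targets have medians of -1.21 and -0.51.

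The levels of 7409 genes that averaged 5 CPM or more were set against those of Mxd1 and Myc. Most like Mxd1 over the 8 libraries were Pgm2 and Tmbim6 (r = 0.998 each) and Marcks and Numb (r = 0.997 each), by Pearson's r of log2(CPM + 1). Pgm2 had 32.6 and 35 CPM in H2R-deficient low-density cells, against 78.3 and 73.2 CPM in H2R-deficient high-density cells. Wild-type libraries had 41.9 and 47.6 CPM at low density, against 70.5 and 62.2 CPM at high density. Like Mxd1, Pgm2 was lowest in the H2R-deficient low-density libraries and highest in the high-density libraries. Most like Myc were Wdr3 (r = 0.995), Knop1 and Thap12 (r = 0.99 each), Ints1 (r = 0.988) and Nob1 (r = 0.987). Wdr3 had 21.3 and 24.1 CPM in H2R-deficient low-density cells against 9.75 and 9.57 CPM in H2R-deficient high-density cells, and 18 and 17 CPM in wild-type low-density cells against 8.49 and 10.2 CPM in wild-type high-density cells. All points share the split between low and high density, so these likenesses describe that split.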

How the data were processed

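Total RNA was sequenced by the submitters. Each deposited file lists unnormalized counts of reads for every gene beside its exon length, as featureCounts writes them, per the file headers. Tools named in the submitters' processing notes are STAR 2.5.2b, featureCounts (Subread 1.5.2), Trimmomatic 0.36 and bcl2fastq 2.17.1.14, with build GRCm38. The sources used here do not give the strand setting. Of 49315 identifiers, 48970 were matched to a symbol in GENCODE M21.

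Genes kept by filterByExpr (14909) were scaled by TMM and fitted with edgeR 4.0.16 in R 4.3.3, quasi-likelihood with 1 mean per group over 8 libraries, leaving 4 residual degrees of freedom (common biological coefficient of variation 0.236). P-values were adjusted by Benjamini-Hochberg over all genes tested. Alternatives were DESeq2 1.42.0, limma-voom (limma 3.58.1), RLE factors, library totals only, scaling to 24 mature neutrophil genes, no filter, only the 4 libraries compared, a replicate block and leaving out each library. The fit was tested on simulated data in which few genes changed, so that run does not test the choice of scaling between densities. Within groups the chi-square over genes was 36 to 50.7 per degree of freedom, above sampling noise, so none was treated as a copy.

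The members and gene lists were chosen with earlier results of these data known. Besides the members, the text names 4 further network genes, up to 4 genes of each list with the lowest p in either density comparison, and the 5 genes most like Mxd1 and Myc, of which 1 is not reported here. Marker lists are given by count and sum. Macrophage, T and NK cell, eosinophil, erythroid and immature granulocyte markers summed to 255.4 to 610.8, 4.72 to 38.6, 26.8 to 97.1, 0.165 to 182.7 and 5.92 to 10.7 CPM of library totals over the 8 libraries. Values of Mxd1 between densities and between genotypes carry no test.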

Additional observations from a re-analysis of the deposited data

How the results depend on the processing

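The count of genes called between densities in H2R-deficient cells was 8044, and stayed within 1.5 times of it under every alternative run. With library totals only it split into 7690 higher and 387 lower, and with neutrophil scaling into 10977 and 36, against 4478 and 3566 with TMM. In wild-type cells the count was 1888 (1269 higher and 619 lower), and became 4946 with library totals only (4822 and 124), 6039 with neutrophil scaling (5965 and 74), 3361 without the filter and 581 from the 4 libraries compared, with 93 to 1771 when a library was left out. Between genotypes in low-density cells it was 0, and became 4206 with neutrophil scaling, 1360 without the filter, 870 with DESeq2 and 8 with limma-voom, with 0 to 63 when a library was left out. In high-density cells it was 31, and became 73 with library totals only, 153 with neutrophil scaling, 1095 without the filter, 677 with DESeq2, 3 with limma-voom and 0 from the 4 libraries compared, with 0 to 34 when a library was left out. For the difference of effects it was 0, and became 635 with library totals only, 2044 with neutrophil scaling, 1210 without the filter and 946 with DESeq2, with 0 to 3 when a library was left out. The causes of these changes were not tested.

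The labels do not say that replicate numbers pair the libraries, and whether they do is not settled by these data: deviations of same-numbered low-density and high-density libraries correlated at 0.382 in H2R-deficient and 0.0305 in wild-type cells, a single value per genotype. With a replicate block the counts were 8450 in H2R-deficient cells, 2621 in wild-type cells and 28 for the difference of effects. No paired analysis was possible between genotypes because the groups share only number 2.

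A change of sign is counted where a value before or after it passed the threshold, and for Mxd1 wherever its value changed sign. With library totals only, the H2R-deficient density difference became 0.18 for Mxi1, 0.08 for Mnt, 0.83 for Mga, 0.68 for Mlx and 0.09 for Sin3b. With neutrophil scaling it became 0.38 for Max, 0.92 for Mxi1, 0.86 for Mnt, 1.59 for Mga, 1.42 for Mlx, 0.65 for Arid4b, 0.84 for Sin3b, 0.32 for Ep300, 0.43 for Pim1, 0.75 for Gsk3a, 0.46 for Sat1, 0.48 for Azin1, 0.37 for Arrdc4, 0.53 for Klf10, 0.49 for Pgm2, 0.55 for Tmbim6, 0.37 for Marcks and 0.26 for Numb. In wild-type cells it became 0.78 for Mga, 0.09 for Arid4b and 0.14 for Numb, and the difference of effects for Mxd1 became 0.03. These reversals follow from the scaling, which shifts all genes by the medians given for each scale.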
